A study of Mus musculus with 7 samples.

Results

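The transcription factor p53, encoded by Trp53 in the mouse, was examined together with 9 genes that its pathway is known for, namely its inhibitors Mdm2 and Mdm4 and the targets Ccng1, Bax, Bbc3, Phlda3, Sesn1, Zmat3 and Eda2r. They were found by their gene symbols in the deposited table, where all 10 were present among 48440 genes, and all 10 passed the minimum mean of 10 normalized counts that left 16251 genes for testing. RNA came from LSK cells, which are bone marrow (BM) cells sorted for the absence of lineage markers and the presence of Sca1 and cKit, and which contain the hematopoietic stem cells and multipotent progenitors. C57BL/6 recipients, whose age is not given in the sources used here, were lethally irradiated with 9.5 Gy and received either BM of wild-type donors or BM of donors with a constitutive, endonuclease-mediated PROSER1 KO. LSK cells were sorted from both kinds of recipient at day 77 after transplantation without further treatment, and 4 wild-type and 3 PROSER1 KO libraries were sequenced. The hosts of both groups were irradiated, no gate that separates donor from remaining host cells is stated for this sort, and the labels call the libraries biological replicates without naming animals, so that p-values measure only the spread between these libraries.

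In unstressed cells p53 protein is bound by Mdm2, a ubiquitin ligase that marks it for degradation, and by the related Mdm4, which blocks its activity. DNA damage and other stresses release p53, which then binds its sites in DNA and raises the transcription of genes for cell cycle arrest, repair and apoptosis, and of Mdm2 itself, which closes a feedback loop. In hematopoietic stem and progenitor cells p53 is known for holding cells in quiescence and for the loss of cells after irradiation, and control of the protein means that its activity is commonly read from its targets rather than from Trp53 mRNA.

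The sequence that p53 recognizes is made of a pair of 10-base half-sites and reads the same on both strands. The 250 bases before each annotated start (RefSeq, GRCm38.p6) were searched on both strands for the best match to the 20-base p53 site consensus with no spacer between the half-sites. Of the 10 genes, 9 had such windows, 13 in all, and Zmat3 had none in the table. The closest matches are printed here because they show how near the searched windows of these genes come to the consensus. That of Phlda3, with 5 mismatches, is not printed. Capitals mark bases that fit the consensus and lower case letters mark those that do not. Cdkn1a, the cell cycle inhibitor p21 and the best known p53 target, is given beside them.
Ccng1: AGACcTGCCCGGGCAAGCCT
Cdkn1a: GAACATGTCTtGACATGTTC
Bax: AGcaTAtCCCAGGCAAGCTT
Bbc3: ctGCAAGCCCcGACTTGTCC
Sesn1: AAGCTTGTTTttGCTgGCCT
Mdm4: AGGtATGCTgtGGCAAGCCT
Trp53: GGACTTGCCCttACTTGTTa
Mdm2: GAACTTGCCTAGcgAccaTT
Eda2r: AGAtTAGgCTAGAtcTaaCT

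Ccng1 and Cdkn1a each had a match with 1 mismatch, which 0.0761% of all 32851 promoter windows held (25 windows). Bax, Bbc3, Sesn1, Mdm4 and Trp53 each had a window with 3 mismatches, and with Ccng1 that made 6 of the 13 windows with at most 3, against 5.32% of all windows. Mdm2 and Phlda3 came no closer than 5 mismatches, which 71.1% of all windows reached, and Eda2r no closer than 6. On GRCm38.p6 the matches of 1 and 3 mismatches lay at chr11:40755462-40755481 (Ccng1), chr17:29090928-29090947 (Cdkn1a), chr7:45467090-45467109 (Bax), chr7:16309486-16309505 (Bbc3), chr10:41887266-41887285 (Sesn1), chr1:133025626-133025645 (Mdm4) and chr11:69580284-69580303 (Trp53), all upstream of the annotated start. For Mdm4, Bbc3, Sesn1 and Cdkn1a, which have more than 1 annotated start, the closest of their windows was taken. Their other windows came no closer than 6 mismatches for Mdm4 and Sesn1, 5 and 8 for Bbc3, and 5 for Cdkn1a. These are matches of letters within a short window. Binding of p53 to them was not measured here, and sites elsewhere in a gene were not searched. The windows of the gene with the closest match and of the gene whose best match was the most distant are given whole on the strand of the gene, with the best match in capitals. Ccng1 was read from chr11:40755287-40755536 on the reverse strand, where the match starts 195 bases before the start of transcription, and Eda2r from chrX:97377210-97377459 on the reverse strand, where it starts 222 bases before.
Ccng1 promoter: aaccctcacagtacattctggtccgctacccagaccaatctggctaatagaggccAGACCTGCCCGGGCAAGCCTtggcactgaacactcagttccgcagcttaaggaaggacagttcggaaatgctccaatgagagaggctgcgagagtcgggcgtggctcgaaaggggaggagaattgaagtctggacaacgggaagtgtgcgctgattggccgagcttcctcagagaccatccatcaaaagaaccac
Eda2r promoter: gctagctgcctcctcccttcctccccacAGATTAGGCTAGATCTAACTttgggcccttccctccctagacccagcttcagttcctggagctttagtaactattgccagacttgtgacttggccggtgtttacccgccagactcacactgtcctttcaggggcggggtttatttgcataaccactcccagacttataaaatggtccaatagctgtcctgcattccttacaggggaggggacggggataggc

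Proser1, the targeted gene, was not lower in the libraries labelled PROSER1 KO (2088 ± 55.5 normalized counts, SD, n = 4 in wild-type, and 2387 ± 67.5, SD, n = 3), and directions are therefore given as the labels state them. Depth was 33143619 to 42742329 read pairs on genes in wild-type libraries and 37140168 to 45140743 in those labelled PROSER1 KO, and 3 read pairs, the limit that a count of 0 allows for counting error only, correspond to 2.54 to 3.48 normalized counts. The defining LSK genes Kit and Ly6a (Sca1) were well above this limit in all 7 libraries (Kit at least 25535, Ly6a at least 3961), and the 12 stem and progenitor markers summed to 127567 to 142266 in wild-type and 128048 to 131598 in libraries labelled PROSER1 KO. Markers of B and plasma cells, which the lineage gate should remove, held 3.63% to 7.93% of normalized counts among wild-type libraries and 3.41% to 4.88% in libraries labelled PROSER1 KO. All 12 of these markers had a lower mean in the libraries labelled PROSER1 KO (median log2 fold change -0.25), and their sums overlapped between the groups. In bulk samples, fewer cells of a type and less RNA per cell cannot be told apart.

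No change of the p53 pathway was called between the groups. Of the 10 genes, 0 were differentially expressed with limma (a fold change above 1.5, with an adjusted p under 0.05), against 0.258% of all tested genes. With edgeR on recovered read pairs there were also 0, against 0.246%, and with DESeq2 0, against 0.873%. At an unadjusted p-value under 0.05, each of the 3 tools gave 1 gene, Eda2r, which makes 1 of 10 against 9.73% of all genes with limma. Eda2r was likewise the only gene whose groups did not overlap, 1 of 10 against 10% of all genes. Against wild-type, 5 genes had a higher mean and 5 a lower one, with a median log2 fold change of 0.01 (0.0015 over all tested genes). The median size of the difference, without its sign, was 0.04 on the log2 scale against 0.09 for all tested genes. The tested genes reach down to a mean of 10 normalized counts and were not matched to the 10 genes by level. For 9 of the 10 genes the 95% interval of the difference held 0 and lay within 1.5-fold in either direction, so that larger differences of these 9 fell outside the limma intervals.

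**Figure D1:**
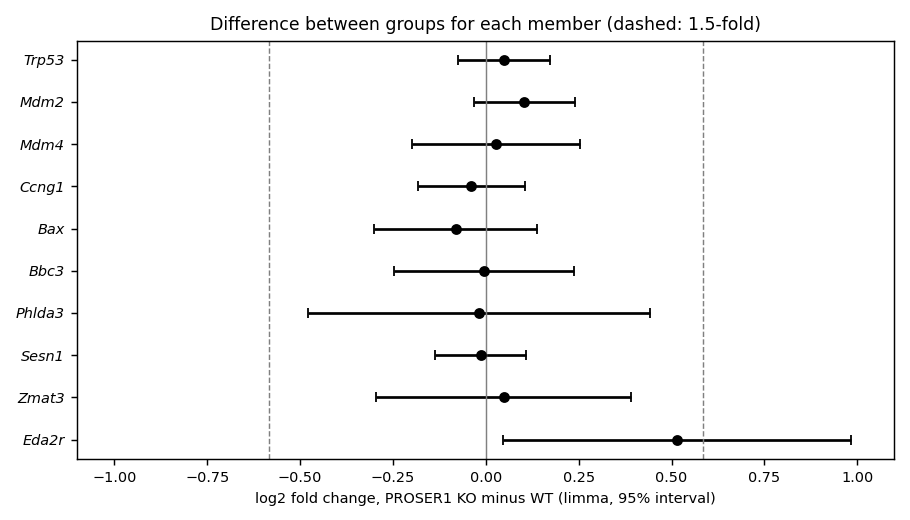
Log2 fold change of each of the 10 genes (x axis, PROSER1 KO minus wild-type on the log2(normalized count + 1) scale, points) with its 95% limma interval (bars), and 1.5-fold marked by dashed lines. The intervals of 9 genes hold 0 and stay inside the dashed lines, and that of Eda2r runs from 0.05 to 0.98.

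Trp53 (ENSMUSG00000059552, forward strand, chr11:69580359-69591873) was expressed at a high and even level. In the order of their replicate numbers, the wild-type libraries had 8454, 9727, 9445 and 9231 normalized counts, and those labelled PROSER1 KO had 9893, 9397 and 9268. Wild-type replicate 1 was the lowest of the 7 libraries, and the libraries labelled PROSER1 KO lay among the other wild-type ones or just above them. Wild-type libraries averaged 9214 ± 546 (SD, n = 4) against 9519 ± 330 (SD, n = 3), which gave a log2 fold change of 0.05 (limma, standard error 0.055, 95% interval -0.08 to 0.17, adjusted p = 0.830). Without wild-type replicate 1 the log2 fold change was 0.0076. Over the 7 libraries the coefficient of variation of Trp53 was 4.93%, against a median of 9.85% for all tested genes, which were not matched to its level. The processed Trp53 pseudogene Trp53-ps, which could take up its reads, was at 0 in all 7 libraries.

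Among the inhibitors, Mdm2 (ENSMUSG00000020184, reverse strand, chr10:117688875-117710758), both an inhibitor and a target, had normalized counts of 3127, 3275, 2985 and 3321 in wild-type and of 3598, 3171 and 3478 in libraries labelled PROSER1 KO. PROSER1 KO replicates 1 and 3 were above all wild-type libraries and replicate 2 lay among them, so that the groups overlapped. With means of 3177 ± 152 (SD, n = 4) for wild-type and 3416 ± 220 (SD, n = 3) in the other group, the log2 fold change came to 0.10 (limma, standard error 0.060, 95% interval -0.03 to 0.24, adjusted p = 0.615). That was the largest difference among the genes other than Eda2r, and it came to 0.16 without PROSER1 KO replicate 2. Mdm4 (ENSMUSG00000054387, reverse strand, chr1:132959484-133030561), which blocks p53 without degrading it, had 12438, 12475, 10688 and 13339 normalized counts among wild-type libraries and 13188, 10550 and 13814 in libraries labelled PROSER1 KO. Its lowest values were those of PROSER1 KO replicate 2 and wild-type replicate 3, and both groups spanned nearly the same range. On average there were 12235 ± 1112 (SD, n = 4) in wild-type against 12517 ± 1732 (SD, n = 3), and limma gave a log2 fold change of 0.03 (standard error 0.10, 95% interval -0.20 to 0.25, with adjusted p = 0.958). Gm29257 overlaps Mdm4 on the other strand without sharing exon bases, and it had 59.3 ± 9.31 (SD, n = 4) and 49.8 ± 9.91 (SD, n = 3) normalized counts. The pseudogene Mdm4-ps, to which similar reads could be assigned, had a mean of 31.1 over the 7 libraries, a small number beside Mdm4.

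The targets of cell cycle control and metabolism were close to level. Ccng1 (ENSMUSG00000020326, reverse strand, chr11:40748552-40755311), cyclin G1, the gene with the closest promoter match, had normalized counts of 3375, 3242, 3387 and 3584 in wild-type and of 3106, 3188 and 3642 in libraries labelled PROSER1 KO. PROSER1 KO replicates 1 and 2 were below all wild-type libraries and replicate 3 was above them. Wild-type libraries averaged 3397 ± 141 (SD, n = 4) against 3312 ± 289 (SD, n = 3), which gave a log2 fold change of -0.04 (limma, standard error 0.064, 95% interval -0.18 to 0.11, adjusted p = 0.896). Sesn1 (ENSMUSG00000038332, forward strand, chr10:41809935-41908424), sestrin 1, which restrains mTORC1 signalling, had 5893, 5793, 5710 and 5647 normalized counts among wild-type libraries and 6222, 5480 and 5444 in libraries labelled PROSER1 KO. The wild-type libraries lay within a narrow span, with 1 library labelled PROSER1 KO above them and 2 below. With means of 5761 ± 106 (SD, n = 4) for wild-type and 5715 ± 439 (SD, n = 3) in the other group, the log2 fold change came to -0.01 (limma, standard error 0.055, 95% interval -0.14 to 0.11, adjusted p = 0.961). Over all libraries Sesn1 had the lowest coefficient of variation of the 10 genes, 4.62%.

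**Figure D2:**
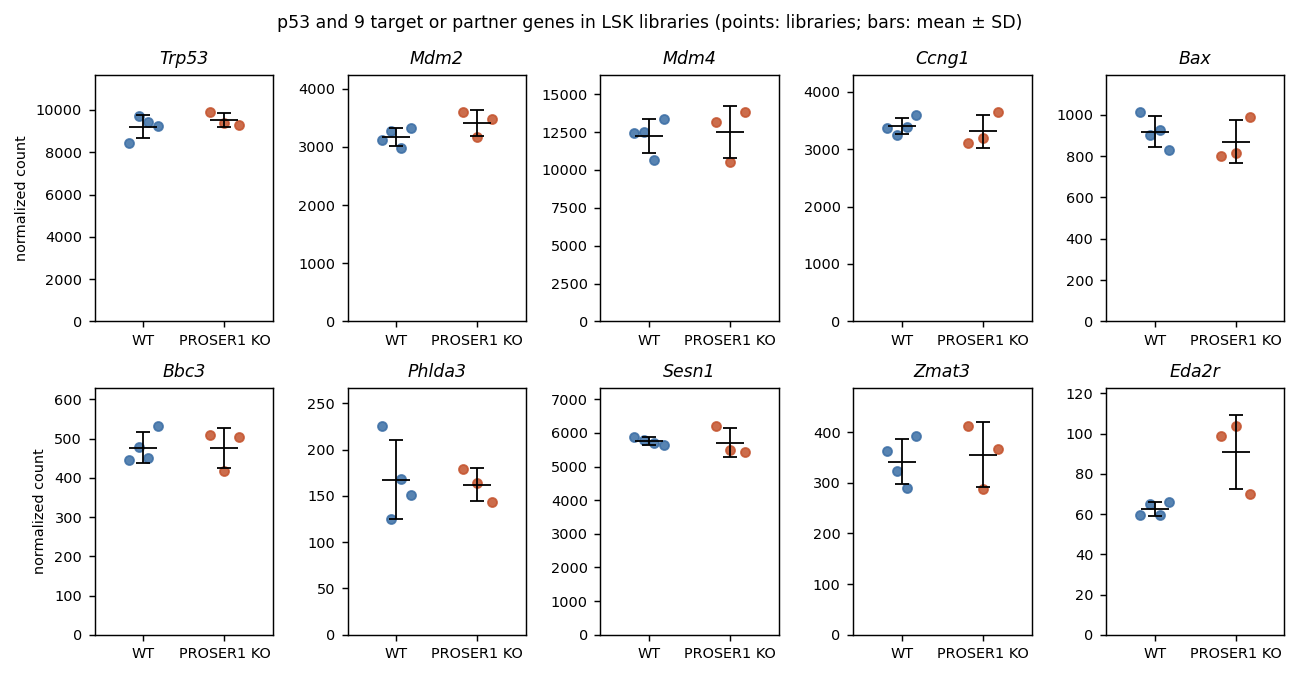
Normalized counts (y axes, 1 panel per gene, each axis with its own range) of the 10 genes in the 4 wild-type and 3 PROSER1 KO libraries (points), with group means and SD (bars). Eda2r is the only panel in which the groups are apart, wild-type at 59.6 to 66.1 and the libraries labelled PROSER1 KO at 70.1 to 104.

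Of the apoptotic targets, Bax (ENSMUSG00000003873, reverse strand, chr7:45461697-45466898), which permeabilizes the mitochondrial outer membrane, had normalized counts of 1013, 904, 929 and 829 in wild-type and of 801, 817 and 991 in libraries labelled PROSER1 KO. PROSER1 KO replicates 1 and 2 were the lowest of all libraries and replicate 3 was second only to wild-type replicate 1. On average there were 919 ± 75.7 (SD, n = 4) in wild-type against 870 ± 105 (SD, n = 3), and limma gave a log2 fold change of -0.08 (standard error 0.098, 95% interval -0.30 to 0.14, with adjusted p = 0.843). Gm45808 shares 192 exon bases with Bax on the same strand and was at 0 in all libraries. How read pairs in these shared bases were assigned is not given in the sources used here, and the level of Bax may be understated. Bbc3 (ENSMUSG00000002083, forward strand, chr7:16308393-16318205), the BH3-only protein Puma, which frees Bax from its inhibitors, had 446, 480, 449 and 533 normalized counts among wild-type libraries and 509, 417 and 503 in libraries labelled PROSER1 KO. Wild-type libraries averaged 477 ± 40.3 (SD, n = 4) against 476 ± 51.4 (SD, n = 3), which gave a log2 fold change of -0.0041 (limma, standard error 0.11, 95% interval -0.25 to 0.24, adjusted p = 0.995).

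Phlda3 (ENSMUSG00000041801, forward strand, chr1:135766119-135769136), a pleckstrin homology domain protein that restrains Akt signalling, was less even. Wild-type libraries had 226, 125, 168 and 151 normalized counts, and those labelled PROSER1 KO had 179, 164 and 143. Wild-type replicates 1 and 2 were the highest and the lowest of all 7 libraries, with those labelled PROSER1 KO between them. With means of 167 ± 42.7 (SD, n = 4) for wild-type and 162 ± 18.3 (SD, n = 3) in the other group, the log2 fold change came to -0.02 (limma, standard error 0.21, 95% interval -0.48 to 0.44, adjusted p = 0.988), and without wild-type replicate 1 the log2 fold change was 0.14. Zmat3 (ENSMUSG00000027663, reverse strand, chr3:32334792-32366014), a zinc finger RNA-binding protein that regulates splicing, had 363, 324, 290 and 392 normalized counts among wild-type libraries and 413, 287 and 366 in libraries labelled PROSER1 KO. PROSER1 KO replicate 1 was the highest and replicate 2 the lowest of all libraries. On average there were 342 ± 44.7 (SD, n = 4) in wild-type against 355 ± 63.8 (SD, n = 3), and limma gave a log2 fold change of 0.05 (standard error 0.15, 95% interval -0.30 to 0.39, with adjusted p = 0.951).

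Eda2r (ENSMUSG00000034457, reverse strand, chrX:97333840-97377216), a receptor of the tumor necrosis factor receptor family for ectodysplasin A2, had the largest difference of the 10 genes. Wild-type libraries had 59.6, 64.9, 59.8 and 66.1 normalized counts, and those labelled PROSER1 KO had 99.1, 104 and 70.1. PROSER1 KO replicates 1 and 2 were well above the wild-type libraries, while replicate 3 was just above the highest of them. Wild-type libraries averaged 62.6 ± 3.38 (SD, n = 4) against 91.1 ± 18.4 (SD, n = 3), which gave a log2 fold change of 0.51 (limma, standard error 0.21, adjusted p = 0.457), and the 95% interval of the fold change was 1.03 to 1.98. The difference did not pass the correction over all tested genes, and the adjusted p-value was 0.449 with edgeR and 0.509 with DESeq2. The two-sided exact permutation test gave p = 0.0286, the smallest that the 35 splits of 7 libraries allow. This p-value is not adjusted for the number of genes, and 10% of all tested genes likewise had no overlap between the groups. Leaving out 1 library at a time gave log2 fold changes of 0.41 (without PROSER1 KO replicate 2) to 0.69 (without PROSER1 KO replicate 3).

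The counts behind Eda2r were few. Its values rest on 52 to 123 read pairs per library, for which counting alone gives an error of 12.8% at the wild-type mean and 10.2% at the mean of the libraries labelled PROSER1 KO. The observed coefficients of variation were 5.40% and 20.2%, so that the wild-type libraries lay closer together than their counting error. For Trp53, with at least 7963 read pairs, the counting error was 1.06% in wild-type. Eda2r lies on the X chromosome, and Xist, the RNA that silences 1 X chromosome in female cells, had 1249 to 3003 normalized counts among wild-type libraries and 1012 to 1841 in libraries labelled PROSER1 KO, while the Y-linked Ddx3y was between 3890 and 4421 in all 7 libraries. Xist and Ddx3y were thus both present in every library. The part of the sex of the cells in the level of Eda2r was not tested. The T cell markers summed to 3948 in PROSER1 KO replicate 1, the highest of all libraries, and to 1656 in replicate 2, the lowest. Lck alone held 2230 and 1338 of these sums. Eda2r had 99.1 and 104 normalized counts in the same libraries. The part of T cells in the level of Eda2r was not tested.

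Levels of different genes were compared as normalized counts per kilobase of exon, taken over all annotated exons of a gene, and the transcripts in use in LSK cells were not measured. The mean level over the 7 libraries was highest for Trp53 at 2310 per kilobase, followed by Sesn1 at 1442, Ccng1 at 957, Mdm4 at 835, Mdm2 at 645 and Bax at 570. Lower levels were found for Bbc3 at 224, Phlda3 at 106, Zmat3 at 30.4 and Eda2r at 12.7 per kilobase. Trp53 was thus 182 times as high as Eda2r and 3.58 times as high as Mdm2 on this scale. The ranges over libraries overlapped between 2 pairs of neighbours in this order, Ccng1 with Mdm4 and Mdm2 with Bax, and these neighbours are not set apart by their levels. Mdm4 was 1.29 times as high as Mdm2 per kilobase.

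**Figure D3:**
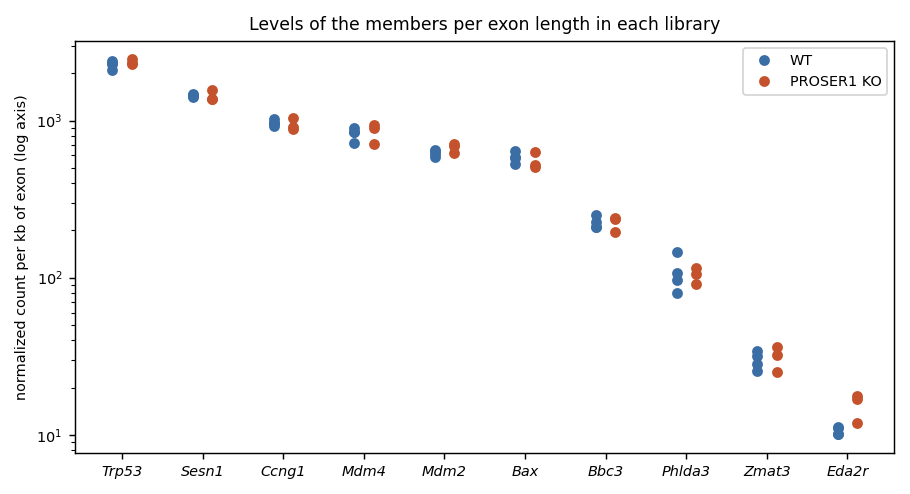
Normalized counts per kilobase of exon (log scale) of the 10 genes in order of their mean over the 7 libraries, with each library as a point. Levels run from 2310 for Trp53 to 12.7 for Eda2r, and the points of Ccng1 and Mdm4, and of Mdm2 and Bax, overlap.

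No library had all targets high or all targets low. Of the 8 target genes (all but Trp53 and Mdm4), the wild-type libraries had 5, 4, 3 and 4 above their own mean, in the order of the replicate numbers, and those labelled PROSER1 KO had 6, 2 and 5. PROSER1 KO replicate 1 had the most targets above the mean and PROSER1 KO replicate 2 the fewest, so that the libraries labelled PROSER1 KO took both ends. Coefficients of variation ran from 4.62% for Sesn1 to 25% for Eda2r, with a median of 9.05%, near the 9.85% of all tested genes. Mdm4 and Zmat3 had their lowest values in PROSER1 KO replicate 2 and wild-type replicate 3, the 2 libraries with the lowest share of B and plasma cell markers (3.41% and 3.63%). These were 2 of the 10 genes (20%), against 7.68% of all tested genes, and the part of these cells in the levels of Mdm4 and Zmat3 was not tested. Of the 77 tested genes of the pathway lists described further on, 6 were lowest in the same 2 libraries (7.79%), which is near the share of all tested genes.

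**Figure D4:**
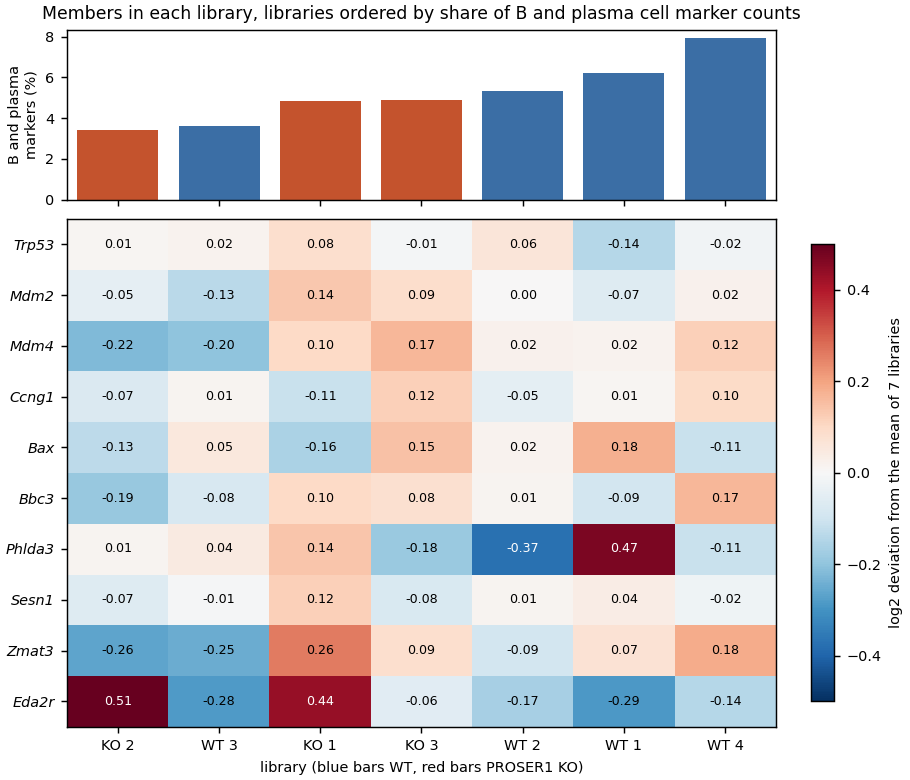
Log2 deviation of each of the 10 genes from its mean over the 7 libraries (lower panel, colours and printed values), with libraries ordered by their share of normalized counts in B and plasma cell markers (upper panel, bars, percent). Mdm4 and Zmat3 are lowest in the 2 libraries at the left, with shares of 3.41% and 3.63%, and Phlda3 is highest in wild-type replicate 1.

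The library with the highest Phlda3 and Bax, wild-type replicate 1, also had the highest sum of 10 genes known to be induced by tissue handling. They are immediate early genes such as Fos, Jun and Egr1, and the heat shock genes Hspa1a and Hspa1b. That sum was 47183 there and 8640 to 19617 in the other libraries. Cdkn1a was likewise highest there, with 599 normalized counts against 471, 428 and 405 in the other wild-type libraries and 429, 382 and 434 in libraries labelled PROSER1 KO. For Cdkn1a limma gave a log2 fold change of -0.18 (standard error 0.14, with adjusted p = 0.710), and -0.07 without wild-type replicate 1. Of the genes in the tissue handling sum, Atf3 was highest in PROSER1 KO replicate 2, and Hspa1a and Hspa1b in PROSER1 KO replicate 3. In wild-type replicate 1, Trp53 and Eda2r were instead at the lowest of their values in the 7 libraries. The share of all tested genes that were highest in that library is not given. The part of tissue handling in the levels of Phlda3, Bax and Cdkn1a was not tested.

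Among all tested genes, the profile over the 7 libraries nearest to that of Trp53, by the distance between standardized log2 profiles, was that of AI182371 (distance 0.37, where 5.29 would be a mirror image), followed by Lrrc71 (0.50). Nearest to the mean profile of the 8 targets were Rere (0.54), Pik3r1 (0.56) and Tmem38a (0.57), of which Pik3r1 encodes a regulatory subunit of phosphoinositide 3-kinase. Standardizing sets level and spread aside, and AI182371 had 57.7 to 83.5 normalized counts and Lrrc71 only 1.92 to 31.3. Rere, Pik3r1 and Tmem38a were all lowest in the 2 libraries with the lowest share of B and plasma cell markers, as were 7.68% of all tested genes. The part of these cells in the mean profile of the targets was not tested. Some of 16251 genes will lie near any profile of 7 libraries, and shared regulation was not tested.

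The wider pathway was read from 5 further lists, of which 77 of 79 genes could be tested. With limma, edgeR and DESeq2 alike, 0 of them were differentially expressed. At an unadjusted p-value under 0.05 with limma there were 6 genes (7.79% of the 77, against 9.73% of all tested genes), all 6 with higher means in the libraries labelled PROSER1 KO. Means were higher for 54 genes and lower for 23, against 8219 higher and 8032 lower among all tested genes. The median log2 fold change was 0.06 against 0.0015 for all tested genes. The lists join targets that p53 raises, genes that it represses and its regulators. Their joint direction is therefore no reading of p53 activity. Higher means made up 14 of 15 genes repressed through p21 and 18 of 23 regulators. They made up 7 of 12 arrest, 6 of 12 apoptosis and 9 of 15 repair and metabolism targets. There was no overlap between groups for 4 genes (5.19%, against 10% of all genes), namely Psrc1, Apaf1, Rchy1 and Hipk2, a kinase that phosphorylates p53. For edgeR and DESeq2 the share of all tested genes at an unadjusted p-value under 0.05 is not given. Their counts for the single lists below therefore have no background beside them.

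Of the 12 targets in cell cycle arrest and feedback, 7 had higher and 5 lower means, with a median log2 fold change of 0.04. Unadjusted p-values under 0.05 were found with limma for 2 of them and with edgeR and DESeq2 for 3 each, the third being Sfn, which had a lower mean in the libraries labelled PROSER1 KO. Psrc1, a microtubule-associated protein of the spindle, had 867, 955, 1049 and 978 normalized counts among wild-type libraries and 1156, 1202 and 1127 in libraries labelled PROSER1 KO. The groups were apart, and limma gave a log2 fold change of 0.27 (standard error 0.075, with adjusted p = 0.248). Gtse1, a microtubule-binding protein of G2 and S phase that also restrains p53, had a log2 fold change of 0.29 (adjusted p = 0.460 from limma), with 544 to 706 normalized counts among wild-type libraries and 648 to 851 in libraries labelled PROSER1 KO. The extremes of the list were Sfn at -0.24 and Plk2 at 0.45, and neither passed the limma test.

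The 12 apoptosis targets were split evenly, 6 with higher and 6 with lower means, with a median log2 fold change of 0.00032. Each tool gave 2 genes at an unadjusted p-value under 0.05, Apaf1 and Triap1 with limma and edgeR, and Apaf1 and Pmaip1, the latter lower in the libraries labelled PROSER1 KO, with DESeq2. Apaf1, the scaffold of the apoptosome, had 2404, 2428, 2376 and 2322 normalized counts among wild-type libraries and 2883, 2495 and 2620 in libraries labelled PROSER1 KO, without overlap, and a log2 fold change of 0.16 (adjusted p = 0.403 from limma). Triap1, which inhibits the apoptosome, had 626 to 683 normalized counts among wild-type libraries and 682 to 781 in libraries labelled PROSER1 KO, and its log2 fold change was 0.18 (adjusted p = 0.493 from limma). The lowest fold change of the list was that of Pmaip1, the BH3-only protein Noxa, at -0.63 (adjusted p = 0.535 from limma and 0.336 from DESeq2), with 109 to 260 normalized counts in wild-type, and 82.4 to 125 where labelled PROSER1 KO.

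Of the 16 targets in DNA repair, redox control and metabolism, 15 were tested and Gdf15 fell under the minimum mean. Means were higher for 9 and lower for 6, with a median log2 fold change of 0.01, and 0 had an unadjusted p-value under 0.05 with any of the 3 tools (lowest adjusted p = 0.559 from limma). Fold changes ran from -0.28 for Ephx1 to 0.47 for Zfp365 on the log2 scale. Of the 24 kinases, modifiers, partners and relatives of p53, 23 were tested, and Trp63 was at 0 in all libraries. Means were higher for 18 and lower for 5, with a median log2 fold change of 0.06. An unadjusted p-value under 0.05 was found for Rchy1 with limma, for Rchy1 and Hipk2 with edgeR, and for Ep300, a histone acetyltransferase that also acetylates p53, with DESeq2. Rchy1, a ubiquitin ligase also called Pirh2 that targets p53, had 2120, 2084, 1949 and 1966 normalized counts among wild-type libraries and 2270, 2143 and 2242 in libraries labelled PROSER1 KO, and its log2 fold change was 0.13 (adjusted p = 0.470 from limma). Cdkn2a, the locus of Arf, which inhibits Mdm2, had the highest fold change at 1.11 on the log2 scale but did not pass the test (adjusted p = 0.579 from limma). Its means were low, 7.88 and 15.2 normalized counts, and wild-type replicate 4 (16.2) lay within the range of the other group (13.6 to 17.8).

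**Figure D5:**
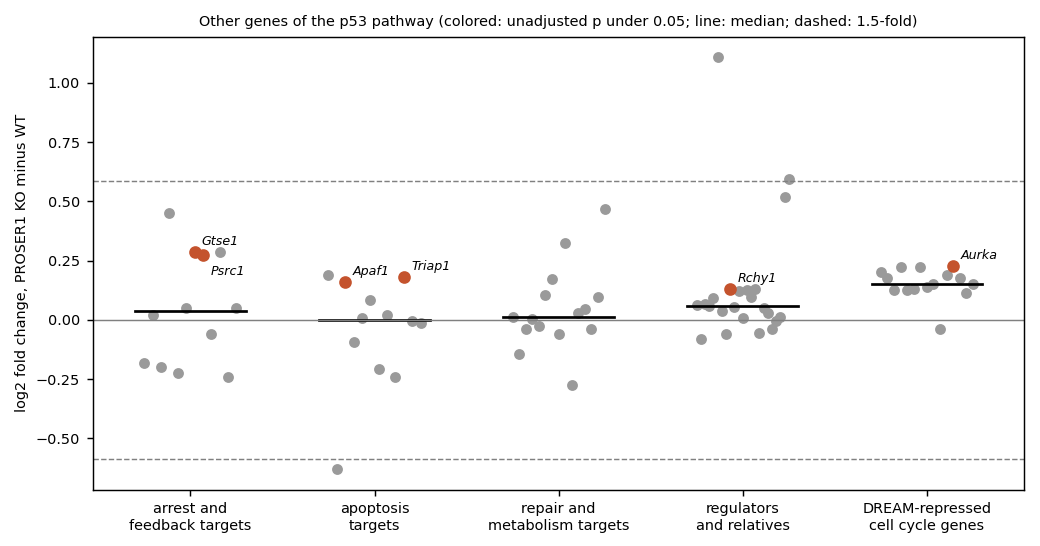
Log2 fold change (y axis, PROSER1 KO minus wild-type, limma on log2(normalized count + 1)) of the 77 tested genes of the 5 further lists (x axis), 1 point per gene, with the median of each list as a line, 1.5-fold as dashed lines, and genes with an unadjusted p-value under 0.05 coloured and named. Medians lie between 0.00032 and 0.15, and the highest is that of the cell cycle genes repressed through p21.

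The 15 cell cycle genes that p53 represses through p21 and the DREAM complex had the highest median of the lists. Against wild-type, 14 had a higher mean and Mybl2 a lower one (-0.04), against 8219 higher and 8032 lower means among all tested genes. Their median log2 fold change was 0.15. For the same LSK cells the paper reports higher expression of genes of the cell cycle in PROSER1 KO. The part of p53 and p21 in the levels of these 15 genes was not tested. An unadjusted p-value under 0.05 was found with limma for 1 gene, Aurka, the mitotic kinase Aurora A. With edgeR it was found for 1 gene and with DESeq2 for 5. The share of all tested genes is given for limma only (9.73%), so that the 5 with DESeq2 cannot be judged against one. Aurka had 1019, 1113, 1169 and 988 normalized counts among wild-type libraries and 1111, 1397 and 1264 in libraries labelled PROSER1 KO, and its log2 fold change was 0.23 (adjusted p = 0.460 from limma). The groups overlapped for all 15 genes. In terms of single libraries, the median deviation of the list from its mean over the 7 libraries on the log2 scale was -0.14, -0.12, 0.14 and -0.15 for wild-type, in replicate order, and -0.11, 0.23 and 0.14 for the other group. Wild-type replicate 3 was as high as PROSER1 KO replicate 3, and PROSER1 KO replicate 1 was nearly as low as the other wild-type libraries. The median log2 fold change of the list ranged from 0.09 without PROSER1 KO replicate 2 to 0.27 without PROSER1 KO replicate 1.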

How the data were processed

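RNA-seq libraries of LSK cells (4 wild-type, 3 PROSER1 KO) were grouped by their labels. Per the labels and methods, the authors trimmed reads with Trimmomatic, mapped them with STAR to mm10 (GRCm38.p6), counted the read pairs of each gene with featureCounts, and divided these counts by DESeq2 size factors. The deposited values are thus a normalized count signal per gene, without a filter on low values. Tool versions and the strand setting of counting are not given in the sources used here. The methods name GENCODE M25, and the header of the identifier column names another release. Whole read pairs were recovered from the step of each library (100% of values whole within 0.01 read pairs). Genes without a symbol (685) stayed in the tests, and 0 columns of other samples were found.

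The comparison used limma 3.58.1 (R 4.3.3), with variances moderated along a mean-variance trend. Its input was log2(normalized count + 1) of the 16251 genes whose mean reached 10. This scale understates fold changes of low genes. A gene was called at a fold change above 1.5 together with a p-value under 0.05 after Benjamini-Hochberg adjustment over all tested genes. Two-sided exact permutation tests ran over the 35 splits into 4 and 3 libraries. Depth was 33143619 to 45140743 read pairs per library. Counts of libraries of 1 group differed by more than sampling noise (30.2 to 95.0 chi-square units for each degree of freedom) and were kept as separate replicates. Positions and exon lengths come from GENCODE M21 (GRCm38) and promoter windows from RefSeq (GRCm38.p6).

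The genes, lists and alternatives were chosen with earlier results of these data known, and the lists were written from general knowledge. Named genes were the 10 genes, Proser1, Cdkn1a, every list gene called or with an unadjusted p-value under 0.05, the 3 nearest profiles to Trp53 and to the mean of the targets, and overlapping genes. Of the profiles nearest to Trp53, 1 is not reported here. Hipk2, Pmaip1, Plk2, Sfn, Ephx1, Zfp365, Cdkn2a, Mybl2, Ep300, Gdf15 and Trp63 were named after their values were seen. As alternatives, the pseudocount was set to 0.1 and 10, the minimum mean to 50 or dropped, TMM normalization was used, the trend was left out, variances were estimated robustly, and the following were run: edgeR 4.0.16 (quasi-likelihood) and DESeq2 1.42.0 on recovered read pairs, the replicate number as a block, and each library left out. The omission of both wild-type replicate 1 and PROSER1 KO replicate 1 was chosen after seeing the data. The fits were tested on simulated data.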

Additional observations from a re-analysis of the deposited data

Results flagged for a closer look

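In 33 sets of 4 wild-type values (the 10 genes, other named genes and the marker sums), the highest or lowest library was checked for a gap to the others beyond Dixon's 95% critical value for 4 samples, which chance passes in about 1 of 20 such sets. It was passed in 2 sets, neither of them a gene of the p53 pathway. The sum of T cell markers was highest in wild-type replicate 1 at 2843 normalized counts, with a gap of 0.938 of the group's range, and the other wild-type libraries lay between 2108 and 2154. The sum of granulocyte and monocyte markers was lowest in wild-type replicate 2 at 19859, with a gap of 0.886 of the range.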

How the results depend on the processing

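The number of differentially expressed genes (42) moved to 17 without the mean-variance trend, 80 with robust eBayes, 165 with DESeq2 and 13 without both wild-type replicate 1 and PROSER1 KO replicate 1 (a setting chosen after seeing the data), and ranged from 23 (without PROSER1 KO replicate 2) to 42 with single libraries left out. Of the 10 genes and of each list, 0 were called in every setting tried, and the lowest adjusted p-value of any of the 10 genes was 0.358 (Eda2r, for which the alternatives reached up to 0.795). Genes without overlap numbered 1 to 3 with single libraries left out, adding Sesn1 without PROSER1 KO replicate 1, Mdm2 without replicate 2, and Ccng1 and Bax without replicate 3, and 2 without both libraries named above. Of 180 log2 fold changes recomputed for the 10 genes, 19 turned their direction, the largest of these being 0.14 in size. Without both libraries they were -0.020 for Trp53, -0.0053 for Mdm4, 0.0025 for Ccng1, 0.022 for Bax, 0.061 for Phlda3 and -0.037 for Zmat3. With single libraries left out they ranged from -0.048 to 0.15 for Mdm4, -0.11 to 0.0053 for Ccng1, -0.055 to 0.089 for Bbc3, -0.15 to 0.14 for Phlda3, -0.077 to 0.020 for Sesn1 and -0.068 to 0.19 for Zmat3. The cause was not tested. The direction of Trp53 (0.0076 to 0.08), Mdm2 (0.07 to 0.16), Bax (-0.18 to -0.03) and Eda2r (0.41 to 0.69) held with each single library left out. With the replicate block there were 35 differentially expressed genes, 0 of the 10 genes were called and Bbc3 stood at 0.051. Deviations of same-numbered libraries correlated at 0.02, 0.06 and -0.11, so that the numbers do not pair them. Standard errors were largest for Eda2r and Phlda3 (0.21 each), and Eda2r had the fewest read pairs (52 to 123 per library).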
